A study of Mus musculus with 2 samples.

Results

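The adipogenic transcription factors Pparg, Cebpa, Cebpb, Cebpd, Ebf1, Ebf2, Zfp423 and Klf4 were followed through Cyp1a1-marked cells of mouse fat. They were taken by gene symbol, and all 8 were found among the 32285 genes of both libraries. The cells came from the perigonadal white adipose tissue (gWAT) of male Cyp1a1Cre x R26LSL-eYFP mice, in which Cre made from the Cyp1a1 promoter switches on eYFP permanently. An eYFP+ cell is therefore one with a history of Cyp1a1 expression, a target of the aryl hydrocarbon receptor (AHR), whatever it expressed when it was collected. Mice of both groups carried the same alleles and had been given FICZ (10 mg/kg), which activates the AHR, 5 days earlier, and they differed in their diet of 12 weeks, a low-fat diet (LFD, D12450J, 10% fat) or a high-fat diet (HFD, D12492, 60% fat). Their ages were not in the labels. Live (DAPI-) eYFP+ cells were sorted from the stromovascular fraction (SVF), which is the tissue after mature adipocytes have floated off. Each diet had 1 library, made from 2 pooled mice, so every diet difference is one between 2 libraries without a replicate check, and no p-value is given.

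Adipogenesis is usually described as a cascade. CEBPB and CEBPD are induced early, together with KLF4, which acts upstream of Cebpb in cultured preadipocytes. They lead to PPARG and CEBPA, which hold each other on and switch on the genes of the mature fat cell. ZFP423, EBF1 and EBF2 mark or commit cells to the lineage before that step. None of these factors is restricted to it: PPARG also works in capillary endothelium and in some macrophages and lymphoid cells, EBF1 is a founding factor of B cells, and C/EBP proteins serve myeloid cells.

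Of the factors 3 were past 1.5-fold higher on HFD in endothelial-like cells (Pparg, Zfp423 and Klf4), beside 19.3% of the 10737 genes measured there, and Zfp423 and Klf4 were not past it under every processing. The sequences before their starts are shown to set these 3 beside each other. RefSeq windows (GRCm38.p6), running from 250 bases before a start to 50 after it, were given for 6 of the 8 factors, with 10 windows in all. The 250 bases before the start are printed 5′ to 3′ on the gene's strand. Capitals mark matches, on either strand, to a C/EBP motif (TTGCNNAA), the EBF palindrome, the direct repeat bound by PPARG with RXR, a KLF motif (CCACACCC) or the AHR core (GCGTG).
Pparg (chr6:115421816-115422065, plus strand): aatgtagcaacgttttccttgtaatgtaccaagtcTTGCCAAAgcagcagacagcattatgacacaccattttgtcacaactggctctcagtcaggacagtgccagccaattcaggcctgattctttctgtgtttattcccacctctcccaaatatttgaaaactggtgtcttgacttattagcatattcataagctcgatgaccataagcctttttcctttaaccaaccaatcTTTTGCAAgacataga
Zfp423 (chr8:87959596-87959845, minus strand): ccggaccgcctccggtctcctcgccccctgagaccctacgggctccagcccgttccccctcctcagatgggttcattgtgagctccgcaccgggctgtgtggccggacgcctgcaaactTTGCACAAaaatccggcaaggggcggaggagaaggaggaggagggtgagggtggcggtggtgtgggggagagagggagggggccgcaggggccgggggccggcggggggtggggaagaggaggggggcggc
Klf4 (chr4:55532476-55532725, minus strand): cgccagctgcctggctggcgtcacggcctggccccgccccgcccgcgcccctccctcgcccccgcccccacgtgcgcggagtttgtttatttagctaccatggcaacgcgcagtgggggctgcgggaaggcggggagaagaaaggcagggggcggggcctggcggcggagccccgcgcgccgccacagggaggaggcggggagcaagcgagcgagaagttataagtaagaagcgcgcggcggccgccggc
Each of these 3 windows ends within 100 bases of a start that GENCODE M21 lists. The Pparg window lies before the downstream start, known for the fat-selective isoform, and it held 2 matches to the C/EBP motif with 2 CpG dinucleotides. The Zfp423 window held 1 C/EBP match and 18 CpG dinucleotides, and the Klf4 window held no match and 32 CpG dinucleotides. Pparg had 3 windows and Zfp423 2, and the one printed for each is the only one of its windows with a C/EBP match. The other Zfp423 window (chr8:87804440-87804689) held none of the motifs and 6 CpG dinucleotides. The Pparg windows not printed held 38 and 12 CpG dinucleotides, so the low count of the printed one is not that of every Pparg start. Of all 32851 windows of 300 bases in the table, 10.8% held the C/EBP motif, against 2 of the 10 windows of these factors. The AHR core was in 3 of the 10, windows of Cebpb, Ebf1 and the most upstream Pparg start, and in 32.4% of all windows. The EBF palindrome (0.904% of all windows), the KLF motif (3.56%) and the direct repeat (0.0396%) were in none of the 10. A match of this kind is a run of letters and says nothing about binding. The libraries read the 3′ ends of transcripts, so the 3 RefSeq starts of Pparg could not be told apart.

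The genes lie on different chromosomes in GENCODE M21 (GRCm38). Pparg (ENSMUSG00000000440) spans chr6:115360951-115490399, Cebpa (ENSMUSG00000034957) chr7:35119293-35121928, and Cebpb (ENSMUSG00000056501) chr2:167688915-167690418. Cebpd (ENSMUSG00000071637) spans chr16:15887286-15891031, Ebf1 (ENSMUSG00000057098) chr11:44617317-45008091, and Ebf2 (ENSMUSG00000022053) chr14:67233292-67430918. Zfp423 (ENSMUSG00000045333) spans chr8:87661810-87959595 and Klf4 (ENSMUSG00000003032) chr4:55527143-55532466, both on the minus strand.

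After filtering, 9294 LFD and 7879 HFD cells remained, with medians of 10213.5 and 12709 UMIs, a UMI being 1 captured RNA molecule. Among the kept cells 21 barcodes occurred in both libraries. Clusters were made without the 8 factors and named from marker lists. The stroma gave an APC-like cluster (adipocyte progenitor-like, 212 LFD and 579 HFD cells), and 3 clusters called here the Wt1+ clusters, after a transcription factor of mesothelium and visceral stroma. These were a Wt1+ keratin-low cluster (3011 and 1286), a mesothelial-like cluster (1766 and 1556) and a cycling Wt1+ cluster (916 and 580). Wt1 stood at 272 to 364 CPM in them and was not particular to them, with 194 and 201 CPM in APC-like cells. It stood at 346 and 450.0 CPM in a cluster of 61 and 90 cells with few UMIs (medians of 1022 and 963.5), which was left unnamed and entered no comparison. That cluster held 56 and 68 UMIs of Klf4, at most 27 of Cebpb and of Cebpd, and 0 or 1 of each of the other factors in either library. Endothelial-like cells numbered 656 and 598, and 15 and 78 cells of the same cluster with UMIs of at least 3 of 7 mural (pericyte and smooth muscle) markers were set apart as mural marker+ cells, a gate settled after values had been seen. Their summed mural markers stood at 3063 and 3236 CPM, and their endothelial markers were higher, at 3687 and 4995 CPM, beside 6232 and 7148 CPM in endothelial-like cells. They are therefore not given as a mural cell type, and their levels are those of cells with RNA of both. Levels are UMI counts scaled to 1000000 (CPM), taken from the UMIs summed over a cell type in a library, with 95% Poisson intervals, which cover counting error only, as do all intervals given here. Since a 3′ library counts each captured molecule once, CPM has no length term. How well each gene is captured was not measured, so CPM of different genes can be set side by side only roughly. Adipocyte transcripts were scarce: Adipoq, which encodes adiponectin, reached at most 11.5 CPM and Plin1, a coat protein of the lipid droplet, at most 24.9 CPM in a cell type and library, both in HFD mural marker+ cells.

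PPARG is the nuclear receptor that is required for fat cell formation. Its level in endothelial-like cells was the highest, with 55.8 CPM on LFD (48.5 to 63.8) and 100.5 CPM on HFD (88.4 to 113.8), except for the few mural marker+ cells with 69.2 CPM (29.9 to 136.4) and 120.8 CPM (92.9 to 154.6). Gata3-high T/ILC-like cells, lymphoid cells with the factor of type 2 innate lymphoid cells, followed with 36.1 CPM (22.9 to 54.2) and 47.0 CPM (28.7 to 72.6), overlapping endothelial-like cells on LFD and apart from them on HFD. In APC-like cells Pparg was at 6.24 CPM (3.41 to 10.5) on LFD and 4.47 CPM (2.95 to 6.51) on HFD, from 14 and 27 UMIs. With cells typed one by one these levels were 1.73 and 2.69 CPM. The Wt1+ keratin-low cells held 4 and 0 UMIs of Pparg, where 0 allows up to 0.141 CPM. The APC-like cluster thus lay far below the endothelial-like level. It overlapped macrophage-like cells at 6.41 CPM on LFD, while on HFD these were at 13.4 CPM (9.82 to 17.9), above the APC-like interval. Free RNA, estimated from immunoglobulin UMIs in cells that are no B or plasma cells, would give 0.0453 and 0.0497 CPM of Pparg in APC-like cells.

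CEBPA acts with PPARG late in the cascade, and in other lineages it directs monocytes. Macrophage-like cells had the highest level, with 98.1 CPM (86.2 to 111) on LFD and 156 CPM (143 to 170) on HFD. APC-like cells had 14.3 CPM (9.76 to 20.2) and 14.6 CPM (11.7 to 18.0), overlapping dendritic cell-like cells at 11.3 and 16.7 CPM. Endothelial-like cells had 5.58 and 6.08 CPM, and the Wt1+ clusters lay between 0.9501 and 1.95 CPM.

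The early factors were spread widely. Cebpb was highest in neutrophil-like cells (1116 and 1649 CPM) and next in macrophage-like cells (392 and 537 CPM). Among stromal clusters it lay between 215 and 391 CPM, whereas endothelial-like cells had 19.7 and 27.5 CPM, or 70.5 and 104.9 CPM without doublet removal. Without doublet removal the clusters given that name included a mixed one of 123 LFD and 132 HFD cells. It had 9 mesothelial, 10 APC, 8 macrophage and 8 endothelial markers raised, so these values are not those of endothelial-like cells alone. Cebpd had its highest level in APC-like cells, at 427 CPM (400 to 455) on LFD and 318 CPM (304 to 332) on HFD, ahead of neutrophil-like cells at 304 and 172 CPM, and the intervals of these types did not overlap in either library. It stood at 107 to 200.02 CPM in the Wt1+ clusters and at 170 and 117 CPM in endothelial-like cells. Klf4 had the highest CPM of the 8 in stroma, with 624 and 1222 CPM in APC-like, 891 and 1144 CPM in Wt1+ keratin-low and 812 and 911 CPM in mesothelial-like cells. On LFD the Wt1+ keratin-low cells were highest and on HFD the APC-like cells were, each without overlap with the next. In endothelial-like cells Klf4 was at 423 and 729 CPM.

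The commitment factors differed in how widely they were found. Ebf2, a marker of committed preadipocytes and pericyte-like cells, was at 32.1 CPM (25.1 to 40.4) on LFD and 101 CPM (93.2 to 109) on HFD in APC-like cells. Mural marker+ cells had 43.3 CPM on LFD (14.0 to 101) and 99.8 CPM on HFD (74.5 to 130.8). In every other type either library held at most 4 UMIs of it. Its relative Ebf1 was highest in mural marker+ cells (736 and 669.5 CPM) and next in B-like cells (436 and 540 CPM). On LFD cycling B-like (403 CPM), endothelial-like (315 CPM) and APC-like cells (232 CPM) followed in this order. On HFD the order was APC-like (422 CPM), endothelial-like (394 CPM) and cycling B-like cells (340 CPM), and the intervals of neighbours in this order overlapped. The Wt1+ clusters had 1.72 to 4.75 CPM of Ebf1. Zfp423, a zinc finger protein that marks preadipocytes and perivascular cells, was low throughout. Its levels were 16.7 CPM (12.9 to 21.4) and 25.1 CPM (19.3 to 32.2) in endothelial-like cells, 12.0 and 12.6 CPM in APC-like cells, and 1.52 to 7.41 CPM in the Wt1+ clusters. In mural marker+ cells it was at 8.65 CPM on LFD (0.219 to 48.2), from 1 UMI, and at 30.7 CPM on HFD (17.5 to 49.8), overlapping endothelial-like cells in both libraries. On LFD the endothelial-like and APC-like intervals overlapped. Among the 14 named types that had 50 or more cells in each library, which leaves out the mural marker+ cells, 2 of the 8 factors (Cebpd and Ebf2) had their highest mean level in APC-like cells, and 3 of the 8 with cells typed one by one.

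**Figure D1:**
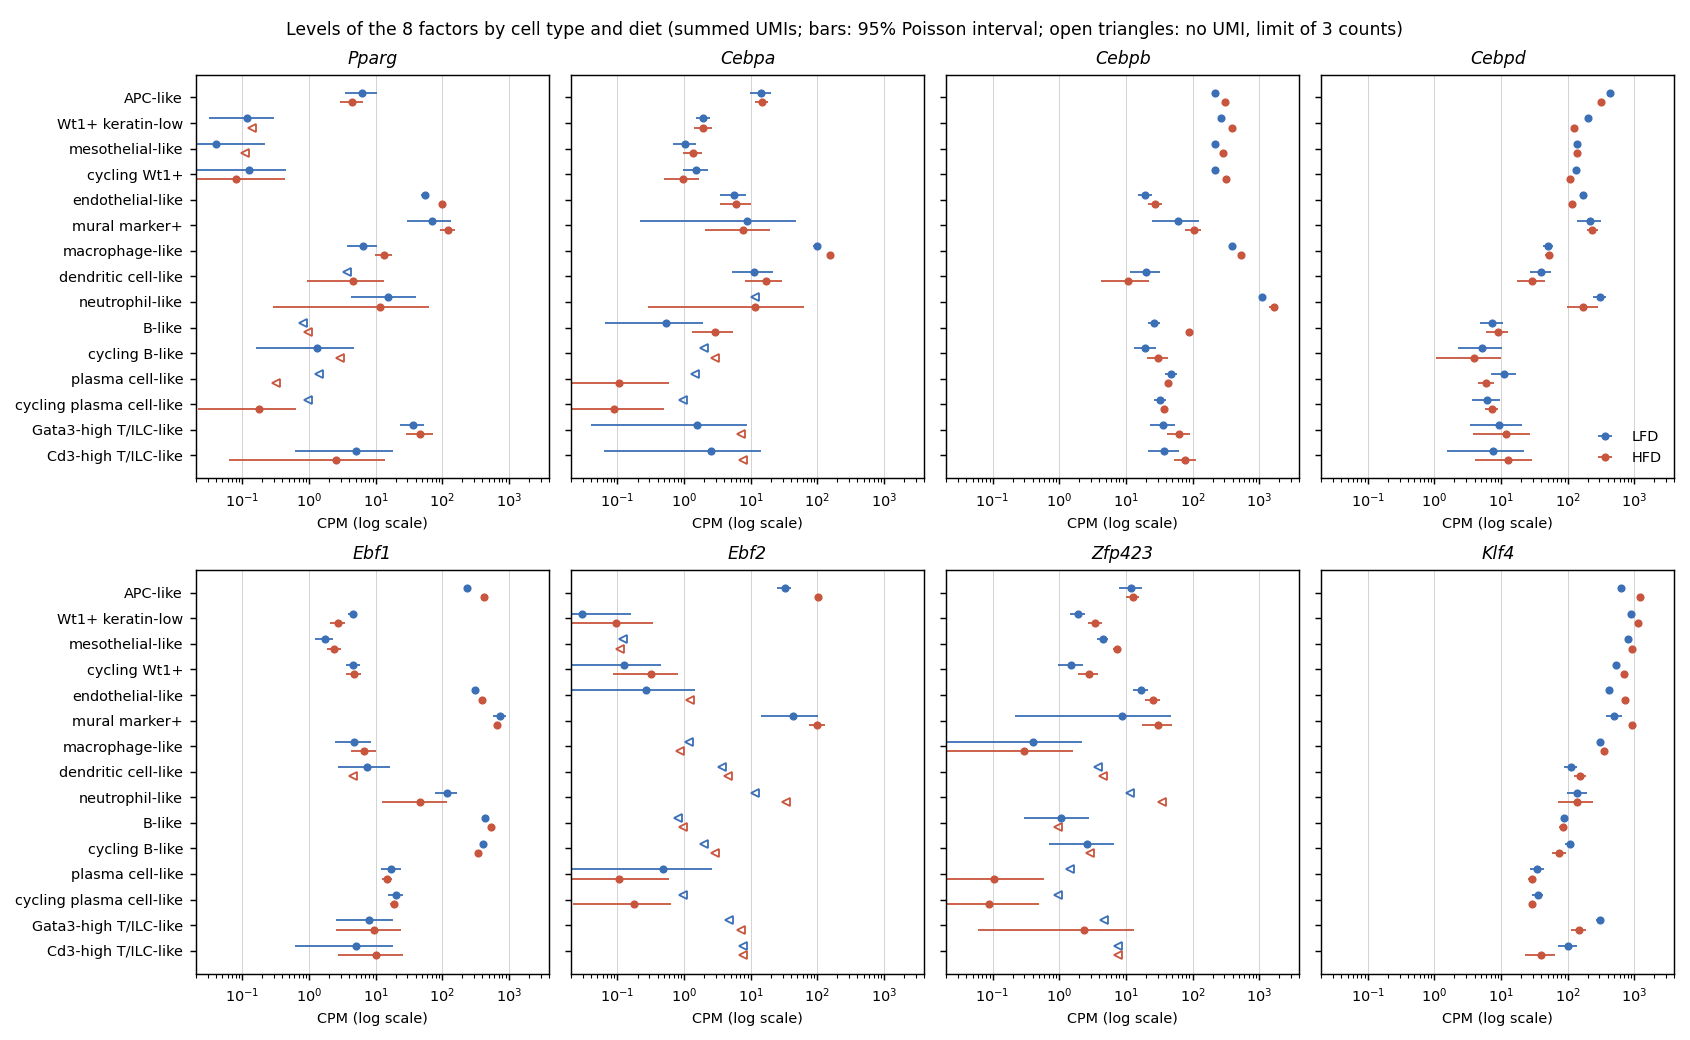
CPM of each factor (log axis, 1 panel a gene) in each cell type, LFD in blue and HFD in red, with 95% Poisson intervals; open triangles stand for no UMI and sit at the limit of 3 counts. Points of Ebf2 with UMIs lie above 30 CPM in APC-like and mural marker+ cells and below 1 CPM in the other types, while Pparg is at 55.8 and 100.5 CPM in endothelial-like cells against 6.24 and 4.47 CPM in APC-like cells.

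In sums over a cell type, fewer positive cells and less RNA in each of them cannot be told apart. The diet comparison asked whether these factors stood at a different level in the cells of mice fed HFD. A ratio was given where the 2 libraries held at least 20 UMIs together and at least 100 cells each, which was met by 56 of 88 gene and type pairs in 11 types. Of these, 14 were at least 1.5-fold higher and 6 at least 1.5-fold lower on HFD, and the counting interval left out 1 for 32. Over all genes of the same types 8.12% to 19.3% were higher and 5.07% to 17.1% lower.

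In APC-like cells all 8 factors were measured, and 3 were at least 1.5-fold higher and 0 lower. Of all 11238 genes measured there 17.6% were higher and 7.14% lower, with a median ratio of 1.08. Ebf2 had the largest ratio of the 8, 3.15 (2.46 to 4.08), from 72 UMIs on LFD and 610 on HFD, above 97.8% of genes. Klf4 was 1.96-fold (1.85 to 2.07) and Ebf1 1.82-fold (1.66 to 2.01) higher, and for both the LFD and HFD intervals lay apart. Cebpb was 1.41-fold higher (1.28 to 1.57), while Cebpd was at 0.745-fold (0.689 to 0.805). Pparg was at 0.716-fold (0.363 to 1.48), Cebpa at 1.02-fold (0.675 to 1.58) and Zfp423 at 1.05-fold (0.666 to 1.69), with intervals that include 1. The direction for Pparg was not stable. Scaled to the median gene it was at 0.664-fold, past 1.5-fold lower, whereas its levels with cells typed one by one, given above, were higher on HFD. For Klf4, typing cells one by one gave 1.44-fold. Among other markers in APC-like cells, arterial ones summed to 71.8 CPM on LFD and 197 CPM on HFD and T/ILC ones to 78.1 and 192 CPM. Neutrophil markers summed to 83.4 and 2.65 CPM and cycling markers to 94.6 and 47.4 CPM. The part of these in the ratios was not tested.

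The APC-like cluster differed in its makeup between the libraries. Cells with more UMIs of Dpp4 and Pi16, genes of interstitial progenitors, than of Col15a1, a gene of cells nearer to commitment, were 16 on LFD (7.55%) and 145 on HFD (25.0%). This split was added after the data had been seen. In the Col15a1 cells (164 and 355) Ebf2 was at 27.1 and 79.1 CPM, 2.92-fold higher on HFD (2.15 to 4.03), and Klf4 was 1.99-fold (1.86 to 2.13) and Ebf1 1.64-fold (1.47 to 1.84) higher. In the Dpp4 and Pi16 cells Ebf2 was at 75.6 and 163 CPM (2.16-fold, 1.24 to 4.11), Ebf1 was 1.98-fold (1.46 to 2.73) and Klf4 1.34-fold (1.16 to 1.57) higher. Ebf2 was thus higher in the Dpp4 and Pi16 cells than in the Col15a1 cells of the same library, and higher on HFD within each. Pparg had 0 and 3 UMIs in the Dpp4 and Pi16 cells and 14 and 23 in the Col15a1 cells.

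**Figure D2:**
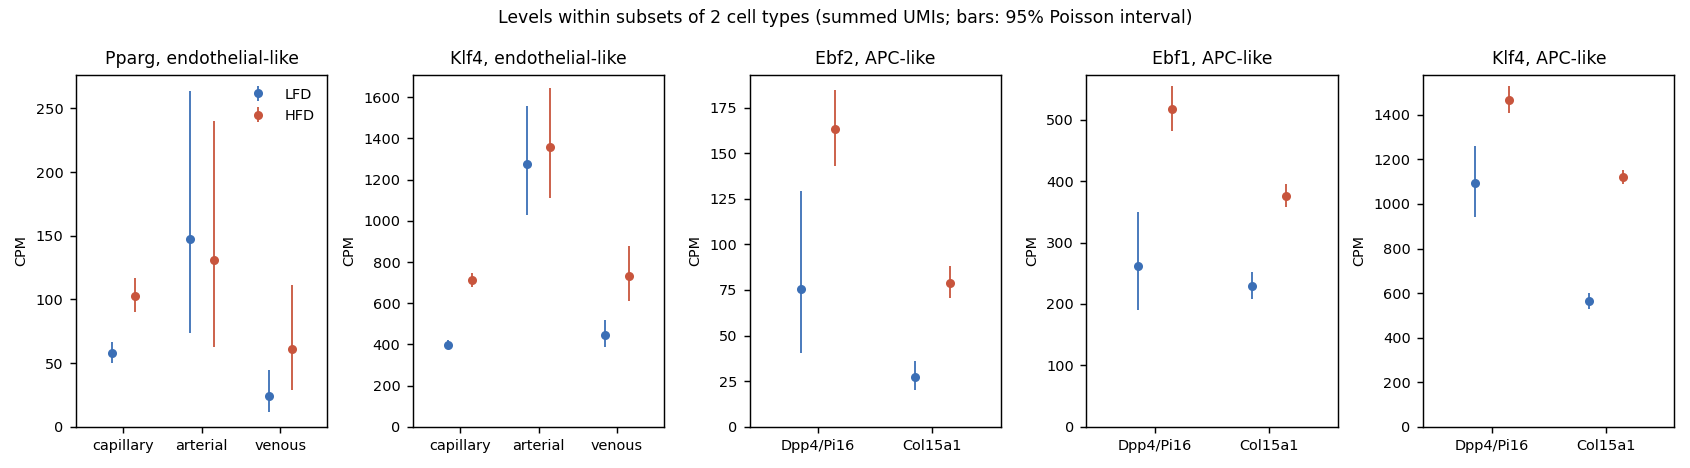
CPM of Pparg and Klf4 in capillary, arterial and venous endothelial-like cells and of Ebf2, Ebf1 and Klf4 in the Dpp4/Pi16 and Col15a1 cells of the APC-like cluster, LFD in blue and HFD in red, with 95% Poisson intervals. In the APC-like panels every HFD point lies above its LFD point, while the arterial intervals of both diets overlap.

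Shares of cells with a UMI were compared at equal depth, with cells thinned to 2000 UMIs and those under 2000 left out. Of APC-like cells 6 on LFD and 22 on HFD were left out, of endothelial-like cells 187 and 169, and of macrophage-like cells 90 and 37. After thinning 5.83% of 206 LFD (3.05 to 9.95) and 17.6% of 557 HFD APC-like cells (14.5 to 21.02) had an Ebf2 UMI. The share with an Ebf1 UMI was 39.3% and 56.6%, and that with a Klf4 UMI 61.7% and 78.8%. For Cebpd it was 48.1% on LFD and 41.3% on HFD. For Pparg it was 0.971% and 1.44%. Without thinning the Ebf2 shares were 26.9% of 212 and 50.3% of 579 cells, and the median depths were 10242.5 and 10232 UMIs. Mesothelial-like cells, with median depths of 13734.5 and 17343 UMIs, had no Ebf2 UMI in 1766 LFD and 1556 HFD cells, which allows up to 0.120 and 0.110 CPM.

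In HFD APC-like cells thinned in a separate draw Ebf1 was found in 57 of 97 cells with an Ebf2 UMI, 58.8% (48.3 to 68.7), and in 53.5% (48.8 to 58.1) of the 460 cells without one. Lpl, the lipoprotein lipase of early committed cells, was found in 78.4% (68.8 to 86.1) and 63.5% (58.9 to 67.9) of the same cells. On LFD the thinned cells with an Ebf2 UMI were 13, of which 46.2% (19.2 to 74.9) had an Ebf1 UMI, against 33.7% (27.05 to 40.8) of the 193 without. Without thinning, 94.5% of 291 HFD cells with an Ebf2 UMI had an Ebf1 UMI, against 88.2% of 288 without, and on LFD 53 of 57 against 124 of 155. For Pparg thinning left 6 HFD cells and 1 LFD cell with a UMI, too few to set beside Ebf2. Without thinning Pparg was found in 4.81% (2.65 to 7.94) of the HFD cells with an Ebf2 UMI and in 3.12% (1.44 to 5.85) of those without. On LFD it was found in 12.3% (5.08 to 23.7) and 2.58% (0.708 to 6.48), so the intervals overlapped in both libraries.

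In the Wt1+ keratin-low cells 6 factors were measured, of which 1 was higher and 2 were lower, beside 8.4% and 9.54% of all genes. Zfp423 was at 1.89 and 3.43 CPM, a ratio of 1.82 (1.28 to 2.58). It was 1.66-fold higher (1.31 to 2.11) in mesothelial-like cells, at 4.47 and 7.41 CPM, and 1.83-fold higher (1.06 to 3.21) in cycling Wt1+ cells, where the stricter filter gave 1.33-fold. Cebpd was lower in the Wt1+ keratin-low cells, at 200.02 and 122 CPM, a ratio of 0.612 (0.585 to 0.640). Its ratio was 0.684 without doublet removal, 0.769 under the stricter cell filter, 0.693 with cells typed one by one and 0.691 at the finer clustering, none past 1.5-fold. Ebf1, at 4.56 and 2.73 CPM, gave 0.597 (0.434 to 0.812). That value rested on 157 and 58 UMIs and became 1.75 with cells typed one by one and 0.891 without doublet removal. Cebpb was 1.49-fold (1.44 to 1.53) and Klf4 1.28-fold (1.26 to 1.31) higher. Mesothelial markers summed to 163 CPM on LFD and 491 CPM on HFD in the Wt1+ keratin-low cells. They summed to 1241 and 1953 CPM in mesothelial-like and 693 and 1284 CPM in cycling Wt1+ cells. The part of this difference in the ratios of the Wt1+ clusters was not tested.

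In mesothelial-like cells 1 of 6 factors, Zfp423, was higher and 0 were lower, beside 9.86% and 5.07% of genes. Cebpd stayed at 138 and 136 CPM there, a ratio of 0.981 (0.936 to 1.03). In cycling Wt1+ cells 1 of 6 was higher and 1 lower, beside 9.66% and 5.62%. The lower one was Cebpa, with 24 and 12 UMIs and a ratio of 0.627 (0.285 to 1.30), and 0.721 by the mean over cells. Cebpb was 1.34-fold higher (1.29 to 1.38) in mesothelial-like and 1.46-fold higher (1.39 to 1.53) in cycling Wt1+ cells. Its ratio lay between 1.34 and 1.49 in all 4 stromal clusters.

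In endothelial-like cells 3 of 7 factors were higher and 0 lower, beside 19.3% and 8.6% of genes and a median ratio of 1.10. Pparg was 1.80-fold higher (1.49 to 2.18), with 210 and 248 UMIs, and its intervals of 48.5 to 63.8 and 88.4 to 113.8 CPM did not touch. Klf4 was 1.72-fold higher (1.61 to 1.85), 1.48-fold without doublet removal and 1.41-fold by the mean over cells. Zfp423 was 1.501-fold higher (1.04 to 2.17), 1.44-fold without doublet removal, 1.36-fold when ratios were scaled to the median gene and 3.35-fold under the stricter filter. The values without doublet removal include the mixed cluster described above. Ebf1 was 1.25-fold higher (1.15 to 1.36) and Cebpd 0.688-fold (0.596 to 0.791). With ratios scaled to the median gene Cebpd was at 0.623-fold, past 1.5-fold lower. Cebpb was at 1.40-fold (0.993 to 1.98), 1.96-fold with the mural marker+ cells kept in and 2.35-fold with cells typed one by one. Of the thinned cells 11.7% of 469 on LFD (8.96 to 15.0) and 17.9% of 429 on HFD (14.4 to 21.9) had a Pparg UMI. Without thinning the shares, over all 656 and 598 cells, were 24.5% and 30.4%, against 0.0566% and 0% of mesothelial-like cells, where 0 on HFD allows up to 0.110 CPM. The summed level of the 7 mural markers in these endothelial-like cells was 41.4 CPM on LFD and 162.5 CPM on HFD. Mesothelial markers summed to 68.3 and 138 CPM, macrophage markers to 51.0 and 116.7 CPM and cycling markers to 749.7 and 322 CPM, and the median depth was 3961 and 2915 UMIs. The part of these in the ratios was not tested.

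Most endothelial-like cells had more UMIs of capillary markers than of arterial or venous ones, 560 of 656 on LFD and 532 of 598 on HFD. In these capillary cells Pparg was at 57.9 CPM on LFD (49.9 to 66.8) and 103 CPM on HFD (89.8 to 117), a ratio of 1.78 (1.46 to 2.17). Arterial cells (24 and 23) had 147.5 and 130.7 CPM from 11 and 10 UMIs, a ratio of 0.886 (0.337 to 2.30). Venous cells (63 and 31) had 24.2 and 60.7 CPM, each from 10 UMIs, a ratio of 2.51 (0.937 to 6.72).

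**Figure D3:**
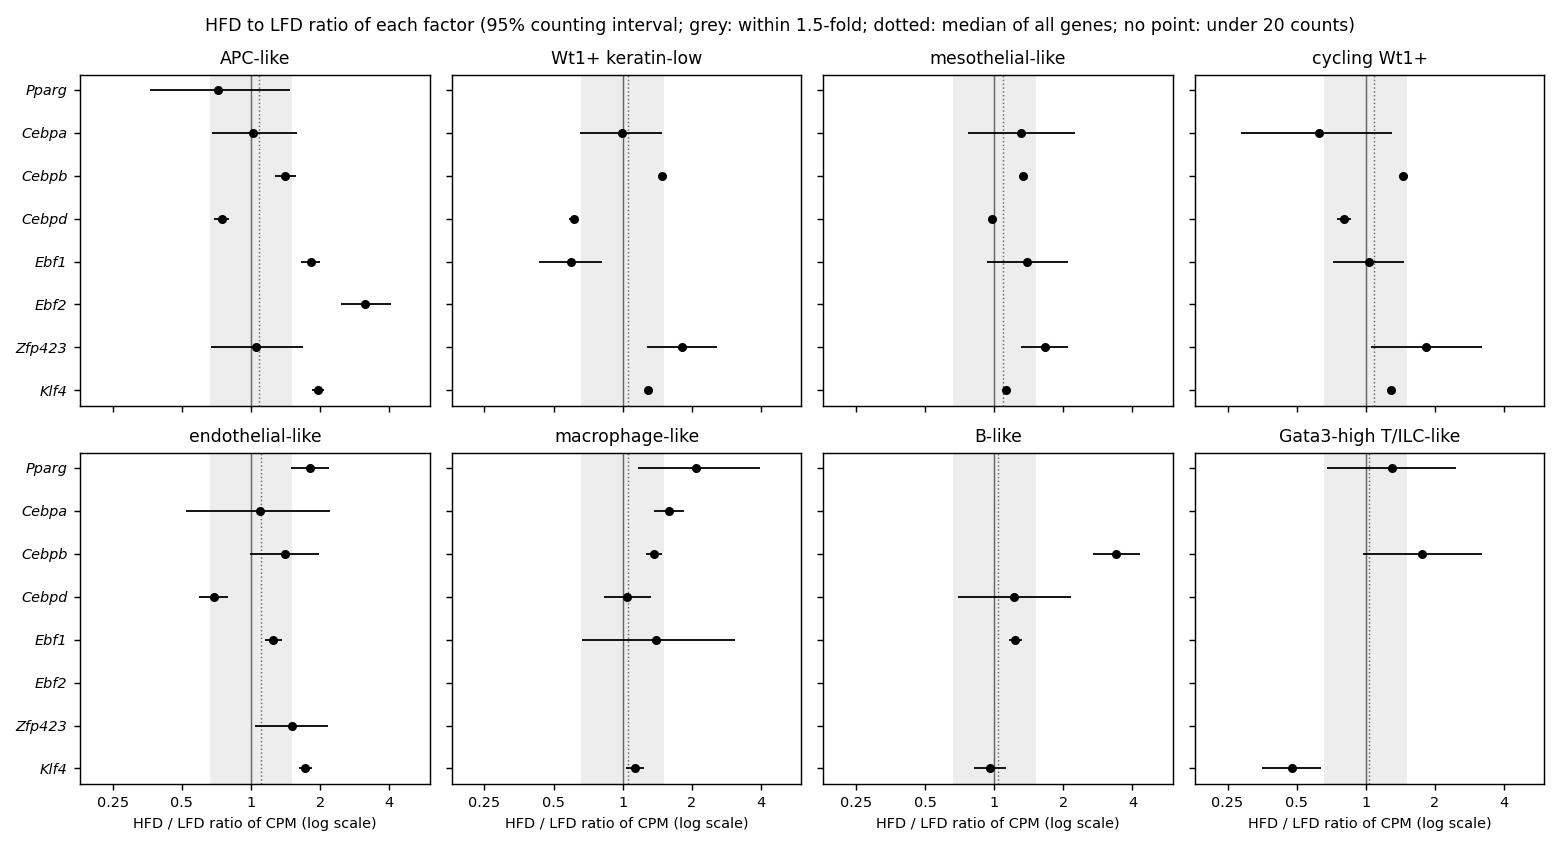
HFD to LFD ratio of CPM (log axis) for each factor in 8 cell types, with 95% counting intervals; grey marks ratios within 1.5-fold, dotted lines the median of all genes, and factors under 20 UMIs have no point. Ebf2, Klf4 and Ebf1 lie right of the grey band in APC-like cells at 3.15, 1.96 and 1.82, and Pparg and Klf4 do so in endothelial-like cells at 1.80 and 1.72.

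Beside these ratios the summed level of 10 immediate early genes, which respond within minutes to handling and other stimuli, was taken. Their sum was 4405 CPM on LFD and 7013 CPM on HFD in endothelial-like cells, 8896 and 9179 CPM in APC-like cells, and 9024 and 7308 CPM in Wt1+ keratin-low cells. Within the thinned endothelial-like cells Klf4 went with this sum, with a Spearman correlation of 0.597 on LFD and 0.595 on HFD over 469 and 429 cells of the same library and depth. Cells above the median sum had 2.01 Klf4 UMIs on LFD and 2.88 on HFD, and cells at or below it 0.341 and 0.709. The corresponding correlations in APC-like cells were 0.278 and 0.393. For Cebpb the correlations lay between 0.00845 and 0.121 in the stromal and endothelial-like cells. The part of the immediate early genes in the Klf4 ratios was not tested.

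In immune cells, where the Ebf2 and Zfp423 counts were too few for a ratio, 6 of the factors could be read. Macrophage-like cells had 2 of 6 higher and 0 lower, beside 11.1% and 6.08% of genes. Pparg was 2.09-fold higher (1.16 to 3.96), from 16 and 46 UMIs, and Cebpa 1.59-fold higher (1.37 to 1.86), or 1.39-fold under the stricter filter. The thinned share of macrophage-like cells with a Cebpa UMI was 17.8% (14.5 to 21.4) and 26.0% (22.2 to 30.1). Among B-like cells 1 of 4 was higher and 0 lower, beside 11.5% and 8.83% of genes. This was Cebpb, at 26.4 CPM on LFD (21.4 to 32.2) and 89.6 CPM on HFD (79.4 to 100.7), a ratio of 3.39 (2.69 to 4.32), above 99.7% of genes. Free RNA, estimated in B and plasma cells from stromal UMIs, was put at 6.85 and 5.98 CPM of Cebpb in these cells. Ebf1, the B cell factor, was at 436 and 540 CPM, a ratio of 1.24 (1.15 to 1.32).

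Plasma cell-like cells had 0 of 4 higher and 1 lower, beside 9.69% and 17.1% of genes: Cebpd, at 11.01 and 6.02 CPM. Cycling plasma cell-like cells had 0 of 4 in either direction, beside 8.12% and 7.73%. In Gata3-high T/ILC-like cells 1 of 3 was higher and 1 lower, beside 18.8% and 15.8%. Klf4 was the lower one, at 304 CPM (263 to 350) on LFD and 146 CPM (112 to 187) on HFD, a ratio of 0.479 (0.354 to 0.640), with free RNA at 13.9 and 12.3 CPM. In these cells the immediate early sum was 4499 and 5936 CPM. Cebpb was the higher one, 1.76-fold (0.971 to 3.21) from 23 and 27 UMIs and 1.22-fold by the mean over cells. In Cd3-high T/ILC-like cells 1 of 2 was higher and 1 lower, beside 16.9% and 10.8%. Klf4 was at 101 and 40.4 CPM, a ratio of 0.401 (0.210 to 0.732), and Cebpb at 37.8 and 78.3 CPM, a ratio of 2.07 (1.08 to 4.13). Free RNA was put at 26.4 and 17.0 CPM of Klf4 and 8.12 and 6.08 CPM of Cebpb in these cells. Their summed plasma cell markers stood at 194 and 1255 CPM, whose part in the ratios was not tested.

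**Figure D4:**
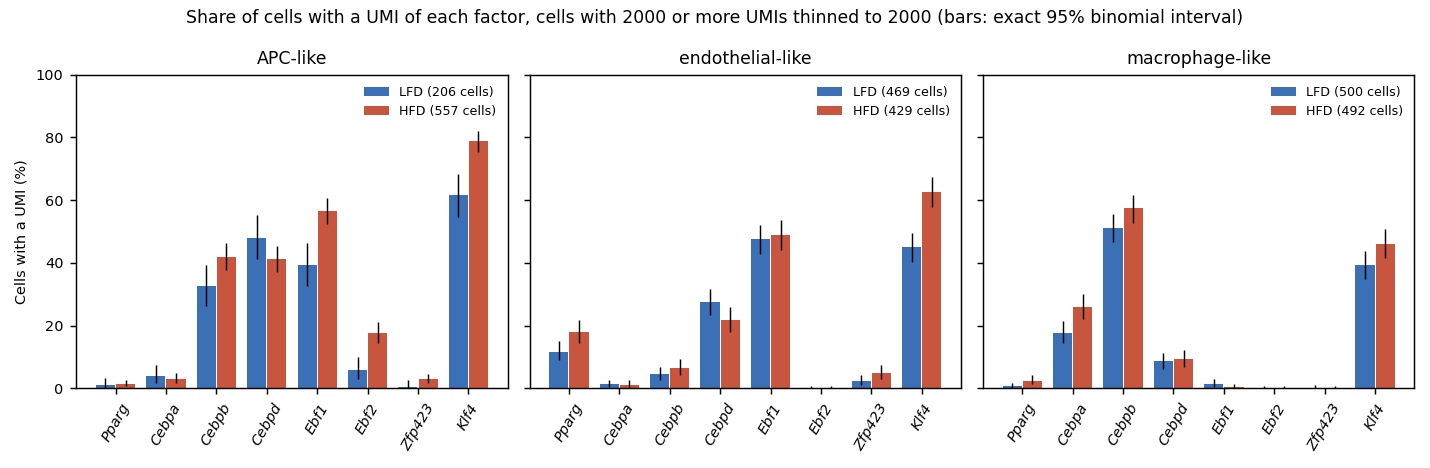
Percent of APC-like, endothelial-like and macrophage-like cells with at least 1 UMI of each factor after thinning to 2000 UMIs, cells under 2000 left out, LFD in blue and HFD in red, with exact 95% binomial intervals. In APC-like cells the Ebf2, Ebf1 and Klf4 bars are higher on HFD and their intervals are apart, as is the Klf4 pair in endothelial-like cells.

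Partners and targets of the factors were described from 3 lists. Of 16 factors that promote adipogenesis, 15 were measured in APC-like cells, with 2 higher, 2 lower and a median ratio of 1.11, beside 17.6% higher, 7.14% lower and a median of 1.08 for all genes. The highest were Bmp4, a lineage-committing morphogen, with 1 and 22 UMIs (8.17-fold, 1.32 to 337), and the glucocorticoid receptor gene Nr3c1 (1.60-fold, 1.35 to 1.90). The lowest were Klf5 (0.441-fold, 0.215 to 0.917) and Klf15 (0.645-fold, 0.356 to 1.20), KLF factors that act before PPARG and in the mature fat cell. Of 14 inhibitors, 11 were measured, with 3 higher and 0 lower and a median of 1.09. The highest were Hes1, a Notch target, 2.13-fold (1.79 to 2.55), and Zfp521, which opposes EBF1 and ZFP423, 1.89-fold (1.32 to 2.78). Nr2f2 (0.970-fold) and Foxo1 (1.05-fold) were the lowest. Of 20 adipocyte and PPARG target genes, 12 were measured, with 1 higher, 1 lower and a median of 0.977. Pdk4, a brake on glucose oxidation, was 3.13-fold higher (1.43 to 8.13) and Retn, which encodes resistin, was at 0.394-fold (0.278 to 0.558). Cd36 followed at 1.33-fold and Acsl1 at 0.729-fold. Lpl was at 655 and 789 CPM.

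In the Wt1+ clusters the inhibitor Dlk1, a surface protein of preadipocytes, was 3.05-fold (2.72 to 3.42), 2.91-fold (2.50 to 3.39) and 2.78-fold (2.31 to 3.37) higher in keratin-low, mesothelial-like and cycling cells. Gata3, which represses Pparg in preadipocytes, was 3.23-fold, 2.14-fold and 4.27-fold higher in the same order, from 23 and 46, 36 and 84, and 17 and 58 UMIs. Of all genes 8.4%, 9.86% and 9.66% were higher and 9.54%, 5.07% and 5.62% lower in the same order, with median ratios of 1.05, 1.09 and 1.09. Of 13 inhibitors measured in each, 3, 3 and 4 were higher and 0, 1 and 0 lower, with medians of 1.16, 1.34 and 1.22. Of 15, 15 and 14 promoting factors measured 0, 0 and 0 were higher and 3, 1 and 1 lower, with medians of 1.02, 1.08 and 1.04. Among them Klf15 was at 0.408-fold (0.259 to 0.622) in keratin-low and Bmp4 at 0.374-fold (0.215 to 0.624) in cycling cells. Of 14, 13 and 13 adipocyte and PPARG target genes measured 2, 3 and 4 were higher and 5, 1 and 2 lower, with medians of 1.08, 1.15 and 1.11. Pdk4 was 2.74-fold, 3.25-fold and 3.85-fold higher, and Retn was at 0.289-fold, 0.584-fold and 0.379-fold. Cd36 in keratin-low cells was at 1.83 and 3.38 CPM, with free RNA put at 1.20 and 1.43 CPM.

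The same lists were read in endothelial-like cells. Of 14 promoting factors measured 8 were higher and 0 lower, of 11 inhibitors 5 and 0, and of 16 adipocyte and PPARG target genes 8 and 5, with medians of 1.53, 1.45 and 1.46. Of all 10737 genes measured there 19.3% were higher and 8.6% lower, with a median of 1.10. Over the 3 lists this gave 21 higher and 5 lower, and with ratios scaled to the median gene 12 and 5. The shares of all genes are for ratios without this scaling, so the scaled counts have no share beside them. Egr2 (2.54-fold, 1.79 to 3.63) and Prdm16 (1.81-fold, 1.28 to 2.57) were the highest promoting factors and Bmp4 (0.872-fold) and Rxra (0.926-fold), the partner of PPARG, the lowest. Hes1 (1.98-fold, 1.74 to 2.24) and Gata3 (2.03-fold, 0.787 to 5.47) were the highest inhibitors, and Nr2f2 (1.03-fold) and Klf2 (1.09-fold) the lowest. Among the target genes Aqp7, the glycerol channel, was at 61.9 and 179.5 CPM (2.90-fold, 2.47 to 3.41) and Cd36 at 1610 and 3504 CPM (2.18-fold, 2.11 to 2.25). Cfd, the adipokine adipsin, was at 74.6 and 8.91 CPM (0.119-fold, 0.0737 to 0.184) and Retn at 15.1 and 4.05 CPM (0.268-fold, 0.122 to 0.529). Adipoq (0.355-fold), Scd1 (0.416-fold), a fatty acid desaturase, and Cidec (0.572-fold), a lipid droplet protein, were lower as well. Free RNA in endothelial-like cells was put at 0.0773 and 0.00590 CPM of Cfd and 0.364 and 0.0920 CPM of Retn. That estimate takes its profile from the deposited barcodes, and the part of RNA from adipocytes, which were not sorted, was not tested. Retn was past 1.5-fold lower in all 5 types in which the lists were read, and Cfd was at 24 and 2 UMIs in Wt1+ keratin-low and 10 and 0 in mesothelial-like cells.

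**Figure D5:**
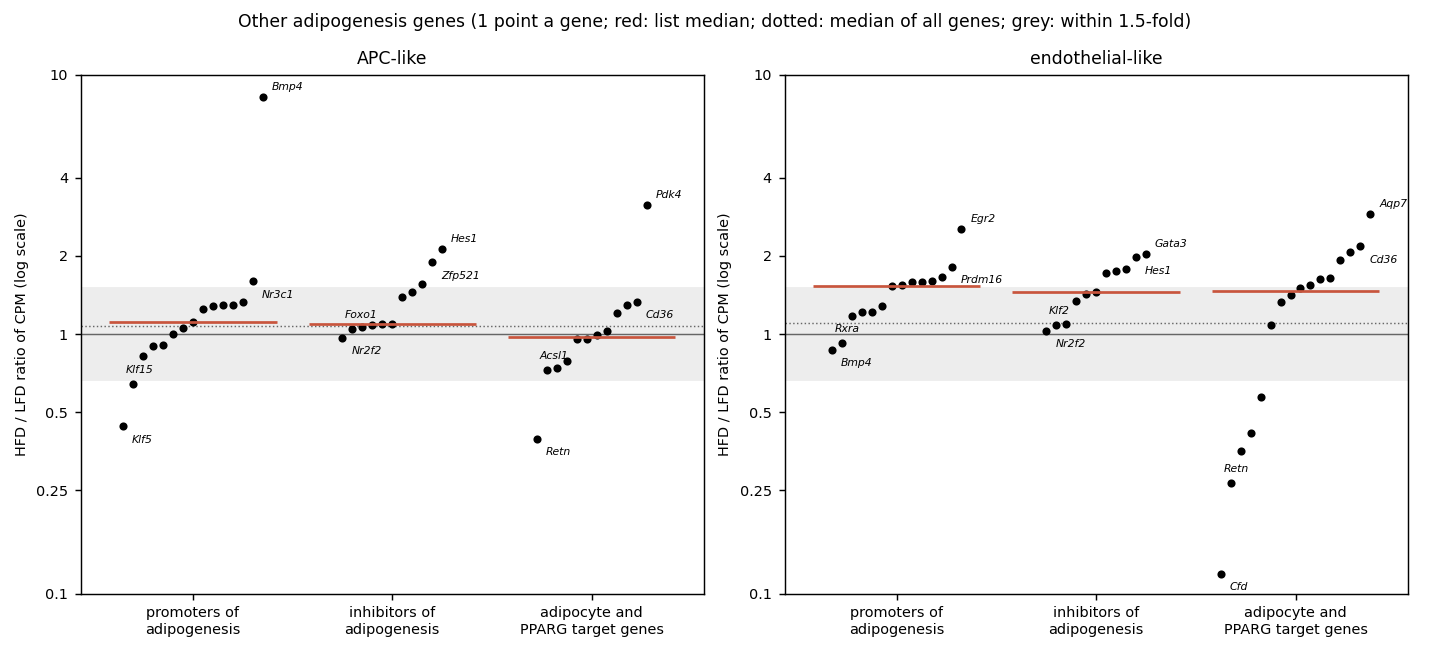
HFD to LFD ratio of CPM (log axis) for the measured genes of the 3 lists in APC-like and endothelial-like cells, 1 point a gene, with list medians in red, the median of all genes dotted and the highest and lowest genes named. The list medians are 1.11, 1.09 and 0.977 in APC-like cells and 1.53, 1.45 and 1.46 in endothelial-like cells.

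The genes with the pattern most like each factor were ranked by Pearson's r of log2(CPM + 1) over 28 sums, 14 types in each of 2 libraries, among 12553 genes. Ebf2 had the closest followers, Pappa2 (r = 0.995), Tcf21 (0.995) and Itga11 (0.993), over sums in which Ebf2 is near 0 outside APC-like cells. For Cebpd they were Fam114a1 (0.953), Gng12 (0.948) and Ltbr (0.940), and for Klf4 Atxn2 (0.951), Pros1 (0.951) and Cyb5r3 (0.936). Zfp423 was followed by Atp8b1 (0.927), Hoxd4 (0.923) and Armcx1 (0.916), Cebpb by Tmem202 (0.919), Ugt1a6a (0.916) and Emilin2 (0.906), and Cebpa by Adap2 (0.915), Tbc1d13 (0.885) and Ltc4s (0.882). The least close were those of Pparg, Btnl9 (0.844), Arap3 (0.840) and Degs1 (0.838), and of Ebf1, Pik3c2b (0.830), Pcmtd1 (0.786) and Tcf4 (0.775). The sums of a library share its depth and free RNA, and these values are descriptions.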

How the data were processed

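Both libraries were 10x Genomics 3′ libraries (v3). The authors deposited raw UMI counts per gene and barcode, and submitters' processing notes list Cell Ranger 4.0.0, STAR, bcl2fastq 2.17.1.14, Seurat 4.1.0 and mm10. The files of gene and barcode names hold no measurement. LFD had 11281 barcodes with 114311020 UMIs and HFD 9631 with 119498750. Cells with 500 to 40000 UMIs, at least 100 genes and under 12.5% mitochondrial UMIs were kept (10216 and 8537), and the cells with the highest Scrublet scores (scanpy 1.11.5) were removed as doublets, at 0.8% per 1000 barcodes (922 and 658). The libraries were integrated in Seurat 5.3.0 (R 4.3.3) on 1977 variable genes without the 8 factors and listed genes, with 30 components and resolution 0.3, and 14 of 15 clusters were named from markers. Counts were summed per type and library and given as CPM with exact 95% Poisson intervals, and ratios with exact conditional binomial intervals (scipy 1.17.1, Python 3.11.15). Shares have Clopper-Pearson intervals. A ratio past 1.5-fold with at least 20 UMIs was called. A count of 0 was given a limit of 3 counts. Free RNA was estimated without the 5% of cells with the largest share. From each list the 2 highest and 2 lowest ratios in a type were named, some left out, and other listed genes were named after their values were seen. Members, lists and tests were chosen with earlier results of these data known. The mural gate, the split of APC-like cells and the free RNA estimate were settled after seeing the data. Scripts were tested on simulated data.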

Additional observations from a re-analysis of the deposited data

Results flagged for a closer look

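Ebf1 had an HFD to LFD ratio of 1.82 in APC-like cells and 0.597 in Wt1+ keratin-low cells. The keratin-low ratio was 0.891 without doublet removal and 1.75 with cells typed one by one, where both clusters had a ratio above 1. Klf4 differed in direction between APC-like or endothelial-like cells and the T/ILC-like types. Its ratio was 1.96 in APC-like and 1.72 in endothelial-like cells, against 0.479 in Gata3-high T/ILC-like and 0.401 in Cd3-high T/ILC-like cells. In B-like (0.959), plasma cell-like (0.829) and cycling plasma cell-like cells (0.818) it lay within 1.5-fold, as it did in the Wt1+ clusters (1.12 to 1.29). With 1 library a diet these differences between cell types were not tested.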

How the results depend on the processing

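No paired analysis was possible because each diet had 1 library, and for the same reason no replicate could be left out. Over 183 repeats of the 20 ratios past 1.5-fold, 167 stayed past it and 1 reversed, Ebf1 in Wt1+ keratin-low cells at 1.75 with cells typed one by one. These repeats include settings that could not move a ratio, so 167 of 183 overstates its stability. Another minimum count leaves a ratio as it is, and keeping the mural marker+ cells in alters endothelial-like cells only. The finer clustering returned the same numbers of APC-like cells, 212 and 579. The count of higher pairs, 14 of 56, was 6 of 36 under the stricter cell filter, which left too few LFD APC-like cells for a ratio, and the count of lower pairs, 6, was 3 of 53 with cells typed one by one. That filter asked for at least 1000 UMIs and under 5% mitochondrial UMIs. It left 493 LFD and 281 HFD Wt1+ keratin-low cells and 71 and 7 B-like cells. Shares of all genes were taken in the main setting only. The HFD share of endothelial-like cells with a Pparg UMI, 17.9%, was 25.3% under the stricter filter, 30.4% without thinning and 11.4% at 1000 UMIs. The HFD share of APC-like cells with an Ebf2 UMI, 17.6%, was 50.3% without thinning and 8.76% at 1000 UMIs, and the co-detection of Ebf1, 58.8%, was 94.5% without thinning. Of the listed genes in APC-like cells, 6 were higher and 10 without doublet removal, and 3 lower and 8 with no minimum count. In endothelial-like cells 21 were higher, and 12 with ratios scaled to the median gene. Without doublet removal no Cd3-high cluster was found, so it gave no value. The Gata3-high cluster then held 244 LFD and 240 HFD cells with 11 T/ILC markers raised, against 112 and 101 cells with 8 raised. The Klf4 and Cebpb ratios of that larger cluster were counted as repeats for the Gata3-high type. The causes of these changes were not tested. Low counts limit the stromal values of several factors, with 0 to 4 UMIs each of Pparg and Ebf2, 12 to 67 of Cebpa and 24 to 202 of Zfp423 per library in the Wt1+ clusters.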
